A study of Homo sapiens with 6 samples.

Results

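The 8 genes described here encode secreted growth factors of blood vessel growth and related secreted proteins: VEGFA, VEGFB, VEGFC, PGF, PDGFA, PDGFB, ANGPTL4 and SRPX2. They were taken by gene symbol, and all 8 are among the 19960 genes of the deposited table. They were selected on their normalized counts in the comparison made here, shLTBP1 against shSCR, so those values are given as a description and without a test. RNA was sequenced from MKN28, an established human gastric cancer cell line, in 2 groups of 3 libraries each. The first group, shLTBP1, consists of stable cells that carry a plasmid for a short hairpin RNA against LTBP1. The second, shSCR, consists of stable cells that carry a plasmid for a scrambled control hairpin. Both groups share the cell line and the culture in serum-containing RPMI medium, and the labels give no treatment and no count of separate clones or transductions. At issue is which RNA levels differ between these 2 groups. With these groups alone, loss of LTBP1, other effects of the hairpin and differences between the stable cells cannot be told apart.

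Vascular endothelial growth factors are secreted dimers that bind receptor tyrosine kinases, mainly on endothelial cells, and tumour cells commonly release VEGFA when oxygen is low, through the hypoxia-inducible factors HIF. Platelet-derived growth factors belong to the same cystine-knot superfamily and act mainly on fibroblasts, pericytes and other mesenchymal cells. ANGPTL4 inhibits lipoprotein lipase and is induced by the nuclear receptors PPAR and by hypoxia, and SRPX2 is a secreted sushi-repeat protein described as a ligand of the urokinase receptor PLAUR. Latent TGF-beta binding protein 1, the product of LTBP1, holds latent TGF-beta in the matrix.

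LTBP1 was depleted in each shLTBP1 library. It had 59.0, 66.8 and 49.0 normalized counts there, against 977, 964 and 1011 in the shSCR libraries. The log2 fold change was -4.07 with a standard error (SE) of 0.12 (limma adjusted p = 1.18e-08). LTBP1 lies on chromosome 2, where up to 25 tested neighbours on each side had a median log2 fold change of -0.57 (neighbour median). With that median subtracted, LTBP1 was at -3.50. All fold changes here are shLTBP1 over shSCR on the log2(value + 1) scale. Normalized counts summed to between 30479879 and 30941103 per library. The gastric epithelial markers EPCAM, CDH1, KRT8, KRT18, KRT19 and CLDN4 were expressed in all 6 libraries and summed to 287672 to 311549 in shLTBP1 and 324236 to 344681 in shSCR libraries. They did not move together: EPCAM, CDH1 and KRT18 fell, with log2 fold changes of -1.12, -0.34 and -0.25 (limma adjusted p = 1.39e-07, 0.00072 and 0.0035), KRT19 and CLDN4 rose by 0.22 and 0.27 (limma adjusted p = 0.0109 and 0.000342), and KRT8 was at -0.145 (limma adjusted p = 0.122). EPCAM lies on chromosome 2, and its neighbour median was -0.54. The 8 endothelial markers summed to 518 to 563 in shLTBP1 and 383 to 407 in shSCR libraries, nearly all of it ESAM, which rose by 0.54 (limma adjusted p = 0.000261). VWF averaged 25.5 in shLTBP1 and 36.2 in shSCR cells (limma adjusted p = 0.15), PECAM1, CDH5, TIE1 and ROBO4 were under the minimum mean of 10, and ERG and CLDN5 were at 0 in all 6 libraries. The part of these markers in the results was not tested. One library stood apart in the globin genes HBA1 and HBB among the blood markers. The list summed to 938 in shSCR replicate 3, mostly HBA1, and to between 3.36 and 12.8 in the other 5. The other blood markers did not stand apart: PTPRC, CD14 and PPBP were at 0.27, 0.70 and 0.92 in shSCR replicate 3. PTPRC and CD14 reached 0.74 and 1.54 in other libraries, and PF4 was at 0 in all 6. Values of the growth factor genes are given below without shSCR replicate 3, and so are the list counts that changed. No label states whether replicates were separate cultures, so errors and p-values measure only the spread among the 6 libraries, and that spread may be technical.

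VEGFA, PDGFB and SRPX2 were lower in the shLTBP1 cells, VEGFB and PGF lay at overlapping values in the 2 groups, PDGFA was slightly lower, ANGPTL4 was close to 0 and VEGFC was listed at 0. In bulk RNA, fewer cells that express a gene and less RNA per cell cannot be told apart. VEGFA stood at 51.0% of its shSCR mean, PDGFB at 54.7% and SRPX2 at 9.81%. Of the 8 genes, 6 had a mean of at least 10 and entered the fit across 12789 genes. In that fit 3 of the 6 passed a limma adjusted p of 0.05, all of them lower. Over all tested genes 53.1% passed, 26.3% higher and 26.8% lower. Because the genes were chosen with these values known, nothing is read from the count. The median log2 fold change was -0.58 over the 6 genes and 0.00 over all tested genes.

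**Figure D1:**
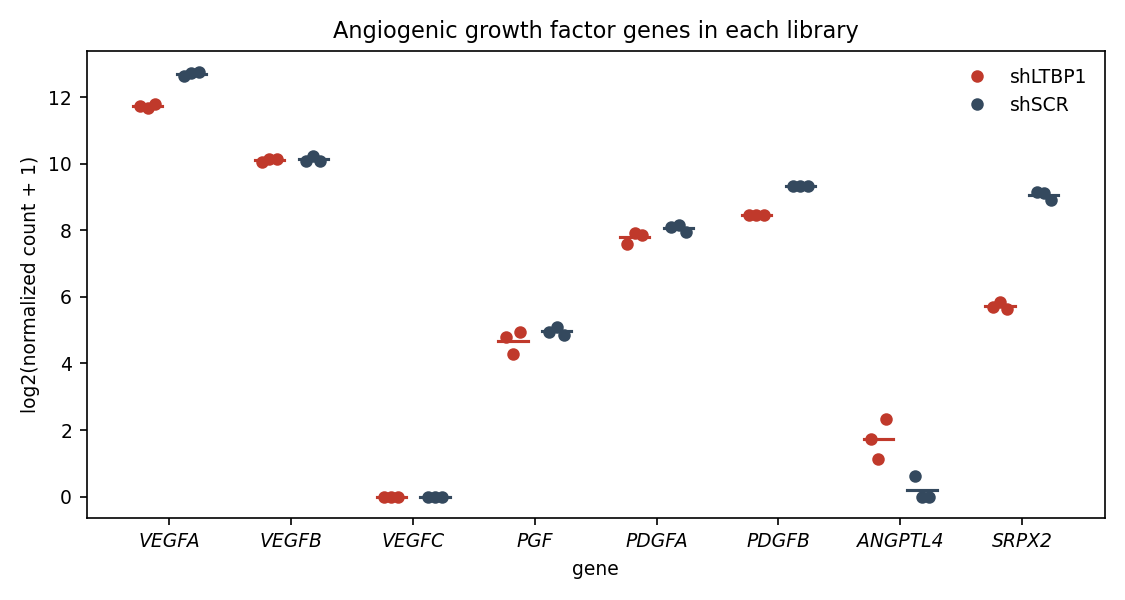
Normalized count of each growth factor gene in every library, as log2(normalized count + 1) on the vertical axis, with the 3 shLTBP1 libraries left of the 3 shSCR libraries. Points are libraries and horizontal lines are group means of the log2 values. VEGFA, PDGFB and SRPX2 are lower in all 3 shLTBP1 libraries, and VEGFC is at 0 throughout.

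The sequence before the start of SRPX2 is shown because SRPX2 differed most, and that of PGF because its values overlapped between the groups. RefSeq start regions on GRCh38.p14 were found for 6 of the 8 genes. VEGFA and PDGFB had no entry. The stretches run 5′ to 3′ on the strand of the gene and end before the first base that GENCODE 29 gives to the gene. They cover chrX:100643949-100644165 for SRPX2 (plus strand) and chr14:74955785-74956014 for PGF (minus strand). Capitals mark a TEAD letter string and an AP-1 letter string in SRPX2, and the GC boxes in PGF.
SRPX2: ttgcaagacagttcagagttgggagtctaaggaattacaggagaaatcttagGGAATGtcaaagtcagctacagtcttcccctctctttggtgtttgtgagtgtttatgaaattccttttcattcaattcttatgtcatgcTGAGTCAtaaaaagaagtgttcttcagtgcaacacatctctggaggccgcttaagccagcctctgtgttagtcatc
PGF: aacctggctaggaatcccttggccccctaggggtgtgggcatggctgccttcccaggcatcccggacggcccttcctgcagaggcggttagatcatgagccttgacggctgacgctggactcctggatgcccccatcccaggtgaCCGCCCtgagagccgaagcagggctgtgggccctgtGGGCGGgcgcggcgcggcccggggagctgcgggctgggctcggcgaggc

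The 250 bases before the RefSeq start were searched on both strands in these 6 genes and in 15165 genes of the table as background. For ANGPTL4 these bases, 8363905 to 8364154, lie wholly inside the gene, which GENCODE places from 8363289. Strings found there are thus within the gene by that annotation. For VEGFB, PDGFA, PGF and SRPX2 the last of the 250 bases also lie inside the gene, which leaves 204, 180, 230 and 217 bases before it. By that annotation the GC box of VEGFB at 8 to 3 bases before the RefSeq start is within the gene. So are those of PDGFA at 56 to 51 and 50 to 45. The RefSeq start of VEGFC was not found among the GENCODE transcripts. The AP-1 string TGANTCA occurs in SRPX2 alone of the 6, at 109 to 103 bases before the start, and in 5.0% of all start regions. The TEAD string CATTCC occurs likewise in SRPX2 alone, read on the opposite strand at 198 to 193 bases before the start, and in 10.1% of all regions. SRPX2 is also the only one of the 6 without a GC box, GGGCGG, which 56.8% of all regions hold. Its region is 42.4% G and C, against 68.8% to 82.8% in the other 5. The core of the HIF binding motif, ACGTG or GCGTG, occurs once each in VEGFB, VEGFC, PDGFA and ANGPTL4, in neither SRPX2 nor PGF, and in 50.7% of all regions. The SMAD palindrome GTCTAGAC is in none of the 6 and in 0.204% of all regions. AP-1, TEAD, HIF and SMAD are families of transcription factors. A matching string is not evidence of binding.

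VEGFA (ENSG00000112715, hg38 chromosome 6, plus strand, bases 43770184 to 43786487) is the main ligand of the endothelial receptors KDR and FLT1. Its normalized count was 3411, 3264 and 3529 in the shLTBP1 libraries, against 6408, 6686 and 6897 in the shSCR libraries. The highest shLTBP1 library lay far below the lowest shSCR library. The means were 3401 ± 133 in shLTBP1 and 6664 ± 245 in shSCR cells (SD, n = 3 each), a log2 fold change of -0.97 with an SE of 0.05. Of the tested genes, 5.01% had a lower fold change. The deposited value is a sum over transcripts, so the splice forms of VEGFA are not told apart.

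VEGFB (chromosome 11, from 64234538 to 64238793), a ligand of FLT1 and the coreceptor NRP1, had 1066, 1129 and 1135 normalized counts in shLTBP1 against 1086, 1207 and 1074 in shSCR libraries. The ranges overlap, and the log2 fold change of -0.015 is smaller than its SE of 0.07. Its neighbours along the chromosome were higher by a median of 0.16.

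PGF (chromosome 14, from 74941834 to 74955784), the placental growth factor and a further FLT1 ligand, was low in both groups. It had 26.7, 18.6 and 29.7 normalized counts in shLTBP1 libraries and 29.9, 33.2 and 27.9 in shSCR libraries. The groups overlap and the log2 fold change of -0.29 had an SE of 0.27, the widest of the 6 genes. VEGFC (chromosome 4, from 176683538 to 176792727), a lymphatic growth factor and ligand of FLT4, was listed at 0 in all 6 libraries.

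PDGFB (ENSG00000100311, minus strand of chromosome 22 from 39223359 to 39244751) encodes the B chain, which binds both PDGF receptors. Its normalized count was 349, 351 and 349 in shLTBP1 libraries, against 644, 635 and 638 in shSCR libraries. The libraries of a group were nearly equal, with means of 349.7 ± 1.27 in shLTBP1 and 639 ± 4.21 in shSCR cells (SD, n = 3 each). The log2 fold change was -0.87 with an SE of 0.07; the SE is moderated towards that of other genes and exceeds the spread of PDGFB itself.

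PDGFA (chromosome 7, from 497258 to 520296), the A chain, had 191, 242 and 229.7 normalized counts in shLTBP1 libraries, against 274, 286 and 245 in shSCR libraries. The groups do not overlap, though shLTBP1 replicate 2 and shSCR replicate 3 nearly meet. The log2 fold change was -0.28 with an SE of 0.12. Groups without overlap and lower in shLTBP1 were seen for 4 of the 6 genes and for 30.6% of all tested genes, and groups without overlap in either direction for 60.8%.

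SRPX2 (ENSG00000102359, plus strand of chromosome X from 100644166 to 100675788) had the largest change of the 6. Its normalized count was 51.2, 56.8 and 48.9 in shLTBP1 libraries, against 572, 551 and 476 in shSCR libraries. Every shSCR library was several times above every shLTBP1 library. The log2 fold change was -3.32 with an SE of 0.12, and 11 of the 12789 tested genes had a lower one. SRPX2 shares 1298 bases with SYTL4, a gene of vesicle trafficking on the opposite strand. The libraries were made with a directional kit. The strand setting of the counting is not given in the sources used here, so reads in that stretch may have gone to either gene. SYTL4 had 349, 541 and 680.4 normalized counts in shLTBP1 libraries and 739, 912 and 829 in shSCR libraries (log2 fold change -0.70, limma adjusted p = 0.0144), a smaller difference than that of SRPX2. Other members overlap antisense genes on the opposite strand: VEGFA over 188 bases, PDGFB over 2564, VEGFC over 22608 and ANGPTL4 over 1. These antisense genes are not among the genes of the deposited table. The unknown strand setting limits the values of those members in the same way.

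ANGPTL4 (chromosome 19, from 8363289 to 8374373) had normalized counts of 2.34, 1.19 and 4.02 in shLTBP1 libraries, against 0.532, 0 and 0 in shSCR libraries. All 3 shLTBP1 values are above the shSCR values, yet values this low rest on few reads. It was not tested and no fold is given.

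Chromosomal position moved with some results in these data: the tested genes of chromosome 2, where LTBP1 lies, had a median log2 fold change of -0.56. The part of chromosomal position in the results was not tested. None of the 8 genes is on chromosome 2, and the tested genes of the members' own chromosomes had medians between -0.08 and 0.10. With the median of up to 25 tested neighbours on each side subtracted, the log2 fold change was -0.96 for VEGFA, -0.87 for PDGFB and -3.01 for SRPX2, whose neighbour median was -0.31. Without shSCR replicate 3, the library with HBA1, the 3 values were -0.945, -0.87 and -3.40, and VEGFB, PGF and PDGFA were at -0.05, -0.345 and -0.35.

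**Figure D2:**
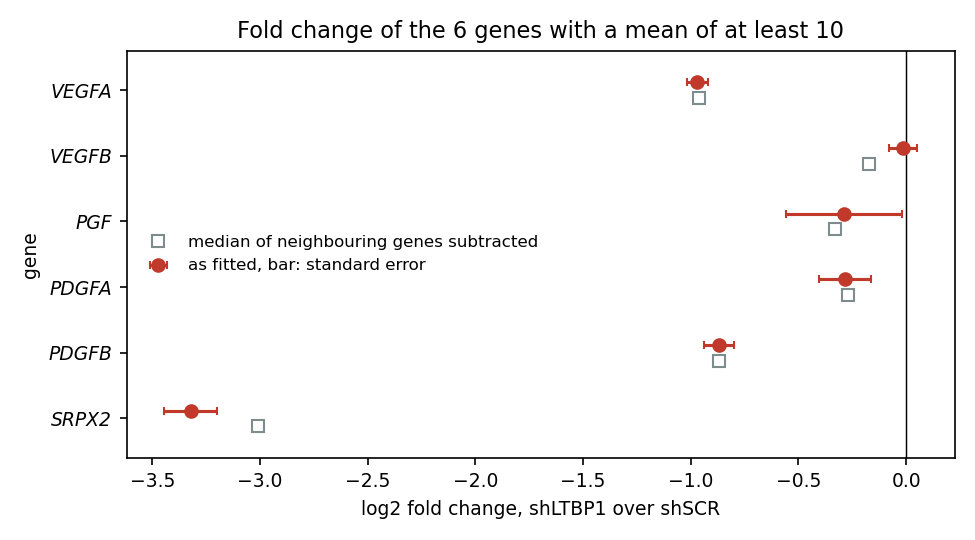
Log2 fold change, shLTBP1 over shSCR, of the 6 growth factor genes with a mean of at least 10. Circles with bars are the fitted value and its standard error, and open squares are the value with the median of neighbouring genes subtracted. VEGFA at -0.97, PDGFB at -0.87 and SRPX2 at -3.32 stay well below 0 in both, and VEGFB at -0.015 lies beside 0.

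Levels were compared between genes after dividing by the exon bases of each gene in GENCODE 29. In the shLTBP1 cells VEGFA led with 903 ± 35.3 normalized counts per kb, ahead of VEGFB with 804 ± 27.8, PDGFB with 98.4 ± 0.359, PDGFA with 93.0 ± 11.1, PGF with 11.7 ± 2.69 and SRPX2 with 7.83 ± 0.61 (SD, n = 3 each). PDGFB and PDGFA overlapped there. In the shSCR cells the levels per kb were 1769 ± 65.1 for VEGFA, 814 ± 53.3 for VEGFB, 180.0 ± 1.19 for PDGFB, 113 ± 9.01 for PDGFA, 79.8 ± 7.56 for SRPX2 and 14.1 ± 1.24 for PGF, with no overlap between neighbours in the order. Per kb, SRPX2 thus stood above PGF in shSCR cells and below it in shLTBP1 cells. In shLTBP1 libraries they nearly met, with SRPX2 at most 8.51 and PGF at least 8.68 per kb. Before division by length, SRPX2 averaged 52.3 and PGF 25.0 normalized counts there. The level per kb of VEGFA was 1.12 ± 0.0582 times that of VEGFB in shLTBP1 and 2.18 ± 0.162 times in shSCR cells. The ratio of PDGFB to PDGFA was 1.07 ± 0.132 in shLTBP1 and 1.6 ± 0.133 in shSCR cells. The same order was found with the longest transcript as the length.

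The genes whose profile over the 6 libraries was nearest to that of VEGFA were TMEM185B, SOS1, PELI1, ENDOD1 and TTLL4. Likeness was the Euclidean distance between log2 profiles, each centred on its own mean, among 10790 genes with a mean of at least 100. The distances were 0.07 to 0.10, and the 5 genes had log2 fold changes between -0.98 and -0.91. All but ENDOD1 lie on chromosome 2, with neighbour medians from -0.58 to -0.52, while VEGFA and ENDOD1 have neighbour medians of -0.01 and 0.03. Nearest to SRPX2 were SLC26A9, an anion transporter, MARCHF4, COL6A2, APOE and FBXO41, at larger distances of 0.32 to 0.71. Their log2 fold changes lay between -3.49 and -2.84. Of these genes, MARCHF4 and FBXO41 lie on chromosome 2, each with a neighbour median of -0.58, and COL6A2 had a neighbour median of -0.46. SLC26A9 and APOE had neighbour medians of -0.14 and 0.04, and SRPX2 had one of -0.31.

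**Figure D3:**
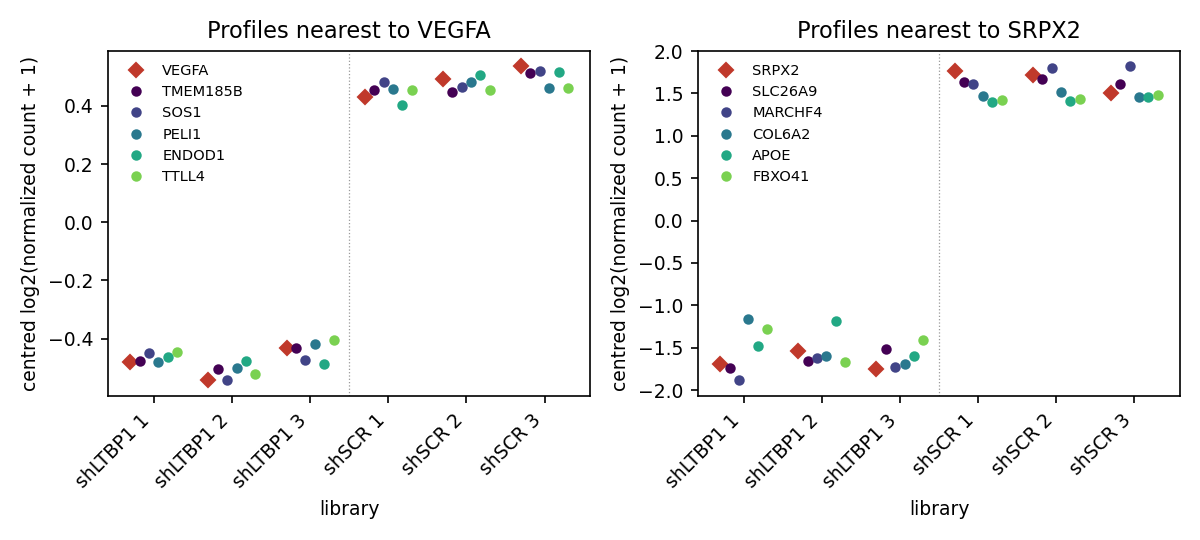
Profiles of VEGFA (left) and SRPX2 (right) and of the 5 genes nearest to each, as log2(normalized count + 1) centred on the mean of each gene, in the 3 shLTBP1 and then the 3 shSCR libraries. Points are libraries. The profiles near VEGFA lie within 0.10 of it in Euclidean distance, and those near SRPX2 within 0.71.

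Other angiogenic ligands moved in both directions. Of 27 listed, 18 were tested, and 7 rose and 5 fell around a median of 0.08 on the log2 scale. Beside this and the lists below stands the share over all tested genes: 53.1% passed, 26.3% higher and 26.8% lower. No set test was run on any list. Midkine (MDK), a heparin-binding growth factor, averaged 2056 ± 254 normalized counts in shLTBP1 and 943 ± 107 in shSCR cells (log2 fold change 1.12, limma adjusted p = 1.33e-05). Adrenomedullin (ADM), a vasodilator peptide, rose by 0.75 on the log2 scale (limma adjusted p = 7.37e-06). The semaphorin SEMA4D rose by 0.71, and was at 0.11 once its neighbours' median was taken off (limma adjusted p = 0.273). The ephrin EFNB2, a membrane ligand of arterial endothelium, averaged 741 ± 30.6 normalized counts in shLTBP1 and 1625 ± 20.5 in shSCR cells (log2 fold change -1.13, limma adjusted p = 3.63e-07). Angiogenin (ANG) and apelin (APLN), both near the minimum mean, had log2 fold changes of -1.54 and -1.29 (limma adjusted p = 0.0076 and 0.0139). The call of APLN was lost without shSCR replicate 2 (log2 fold change -1.195, limma adjusted p = 0.0508).

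Angiogenesis inhibitors likewise moved both ways. Of 23 listed, 11 were tested, and 3 rose and 5 fell around a median of -0.11. SEMA3B, a secreted semaphorin that binds neuropilins, averaged 1297 ± 19.6 normalized counts in shLTBP1 and 51.6 ± 7.01 in shSCR cells (log2 fold change 4.63, limma adjusted p = 3.84e-09). SEMA3F, of the same family, rose by 0.71 (limma adjusted p = 0.000119). CXCL10 rose by 1.035 at a low level (limma adjusted p = 0.0214), and this call was lost without shLTBP1 replicate 1, shLTBP1 replicate 2 or shSCR replicate 3 (limma adjusted p = 0.0504, 0.0637 and 0.0548). SERPINF1, which encodes the inhibitor PEDF, fell by 2.01 on the log2 scale, COL18A1, whose protein holds endostatin, fell by 0.87 and TIMP1 fell by 0.74 (limma adjusted p = 0.00308, 6.39e-06 and 7.58e-05). COL18A1 has lower neighbours, and its log2 fold change was -0.41 with their median subtracted (limma adjusted p = 0.0011).

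The receptors of these factors were mostly near 0 in the MKN28 libraries. Of 16 receptors and coreceptors, 6 were tested, and 1 rose and 3 fell around a median of -0.21. Highest values in any library were 1.26 for KDR, 3.72 for FLT1, 3.13 for FLT4, 4.42 for PDGFRA and 0.715 for PDGFRB, all under the minimum mean of 10. NRP2 reached 8.03 in shLTBP1 and 14.0 in shSCR libraries and was not tested. The coreceptor NRP1, which binds VEGFA, VEGFB and semaphorins, had 394, 248 and 252 normalized counts in shLTBP1 libraries and 112, 168 and 133 in shSCR libraries. The groups do not overlap (log2 fold change 1.095, SE 0.20, limma adjusted p = 0.00132). PLAUR averaged 1325 ± 29.5 in shLTBP1 and 1278 ± 53.0 in shSCR cells, with a log2 fold change of 0.05 and an interval at 95% from -0.08 to 0.18. The integrin chains ITGAV, ITGB1 and ITGA5 fell, with log2 fold changes of -1.01, -0.44 and -0.41 (limma adjusted p = 1.45e-05, 2.23e-05 and 0.00635). ITGAV lies on chromosome 2 and was at -0.495 with its neighbours' median subtracted (limma adjusted p = 0.00183).

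Of 18 genes for the cleavage and release of growth factors, 8 were tested, and 2 rose and 2 fell around a median of -0.06. The proprotein convertases PCSK7 and FURIN, of which FURIN cleaves PDGF precursors, rose by 0.51 and 0.24 (limma adjusted p = 3.67e-05 and 0.000839). PLAT, the tissue plasminogen activator, and SULF2, a sulfatase that trims heparan sulfate, fell, with log2 fold changes of -2.23 and -1.41 (limma adjusted p = 2.3e-08 and 1.24e-05). FURIN averaged 18992 ± 603 normalized counts in shLTBP1 and 16073 ± 295.1 in shSCR cells.

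**Figure D4:**
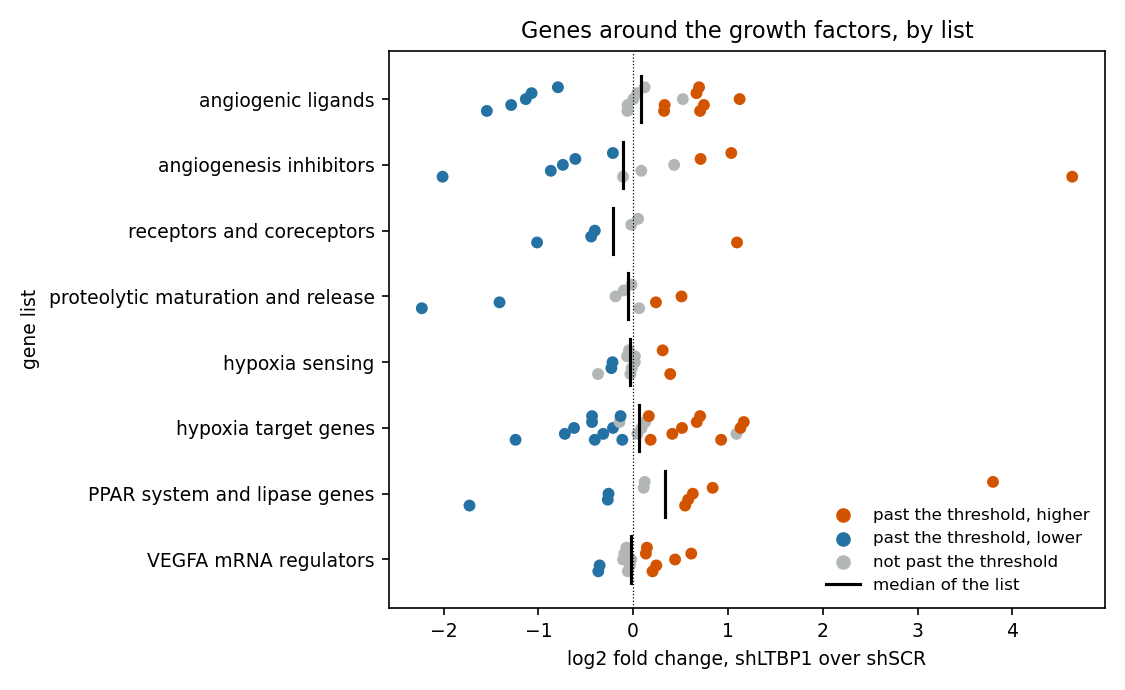
Log2 fold change, shLTBP1 over shSCR, of each tested gene in the 8 gene lists around the growth factors. Each point is a gene, coloured by whether it passed a limma adjusted p of 0.05, and the black line is the median of the list. Every list holds genes on both sides of 0, from PLAT at -2.23 to SEMA3B at 4.63.

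Genes of oxygen sensing showed small differences. Of 13 listed, 11 were tested, and 2 rose and 2 fell around a median of -0.03. Without shSCR replicate 3, 2 rose and 1 fell. Over all choices of 1 library left out, 2 rose and 1 to 3 fell. HIF1A, the oxygen-regulated HIF subunit, averaged 11446 ± 432 normalized counts in shLTBP1 and 13310.0 ± 491 in shSCR cells (log2 fold change -0.22, limma adjusted p = 0.00309). EPAS1, which encodes HIF-2 alpha, had a log2 fold change of 0.02 with an interval at 95% from -0.08 to 0.12. It lies on chromosome 2, and relative to its neighbours' median it was at 0.55 (limma adjusted p = 8.28e-06). The HIF inhibitors CITED2 and EGLN1 rose by 0.39 and 0.31 (limma adjusted p = 6.79e-05 and 0.00626). HIF1AN, a further inhibitor, fell by 0.23 (limma adjusted p = 0.0283), a call that was lost without shLTBP1 replicate 2, shSCR replicate 2 or shSCR replicate 3 (limma adjusted p = 0.0794, 0.109 and 0.0535), with quantile normalization (0.0756) and without the variance trend (0.0825).

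Hypoxia target genes, the group to which VEGFA belongs, moved in both directions. Of 29 listed, 24 were tested, and 9 rose and 10 fell around a median of 0.07, against 8 and 8 without shSCR replicate 3. Over all choices of 1 library left out, 7 to 9 rose and 8 to 10 fell. Among all tested genes 26.3% rose and 26.8% fell. In this list 6 tested genes had neighbour medians beyond 0.3 in size, and with neighbours' medians subtracted 9 rose and 7 fell. The glucose transporter SLC2A1 averaged 110468 ± 8994 normalized counts in shLTBP1 and 49157 ± 3294 in shSCR cells (log2 fold change 1.17, limma adjusted p = 7.35e-07), opposite in sign to VEGFA. The glycolytic enzyme ALDOC rose by 0.93 (limma adjusted p = 0.00054). The carbonic anhydrase CA9 rose by 1.13 at a low level (limma adjusted p = 0.0395); the call was lost under 7 alternatives, among them leaving out shLTBP1 replicate 1 or 3 or shSCR replicate 2 or 3 (limma adjusted p = 0.0584, 0.142, 0.093 and 0.127). The 3 largest falls were those of INSIG2, PDK1 and KDM3A, with log2 fold changes of -1.24, -0.72 and -0.62 (limma adjusted p = 1.48e-06, 0.000287 and 1.93e-05). All 3 lie on chromosome 2. Relative to the medians of their neighbours, the values were -0.62, -0.25 and -0.06 (limma adjusted p = 0.000172, 0.072 and 0.395).

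Of 20 genes of the PPAR system and of lipases, through which ANGPTL4 is regulated and acts, 10 were tested. Of these, 5 rose and 3 fell around a median of 0.33. Without shSCR replicate 3, 5 rose and 2 fell. Over all choices of 1 library left out, 5 rose and 2 to 3 fell. FABP4, a fatty acid binding protein and PPAR target, had 54.5, 73.2 and 72.9 normalized counts in shLTBP1 libraries and 5.44, 2.58 and 3.91 in shSCR libraries (log2 fold change 3.80, limma adjusted p = 1.2e-05). PPARD and its partner receptor RXRA rose by 0.84 and 0.63 (limma adjusted p = 1.07e-06 and 1.03e-06). The endothelial lipase LIPG, which ANGPTL proteins can inhibit, averaged 105 ± 2.12 in shLTBP1 and 354 ± 47.6 in shSCR cells (log2 fold change -1.73, limma adjusted p = 2.35e-06). CPT1A, an enzyme of fatty acid oxidation, fell by 0.26 (limma adjusted p = 0.0009). LPL was listed at 0 in all 6 libraries.

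Among 15 regulators of VEGFA mRNA stability, splicing and translation, 14 were tested, and 6 rose and 2 fell around a median of -0.03. Without shSCR replicate 3, 4 rose and 2 fell. Over all choices of 1 library left out, 4 to 5 rose and 2 to 3 fell. ZFP36 (tristetraprolin), which destabilises mRNAs with AU-rich elements, VEGFA among them, averaged 7180.2 ± 140.0 normalized counts in shLTBP1 and 4695 ± 47.3 in shSCR cells (log2 fold change 0.61, limma adjusted p = 1.54e-06). The splicing factors SRSF5 and HNRNPA1 rose by 0.44 and 0.24 (limma adjusted p = 7.68e-05 and 0.00135). YBX1 and ZFP36L2 fell by 0.35 and 0.37 (limma adjusted p = 0.000206 and 0.000124). ZFP36L2 lies on chromosome 2, and its sign turned, to 0.165, relative to its neighbours' median (limma adjusted p = 0.0143). The stabilising protein ELAVL1 was not past the threshold, with a log2 fold change of -0.04 and an interval at 95% from -0.17 to 0.10.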

How the data were processed

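MKN28 total RNA gave 3 shLTBP1 and 3 shSCR libraries, made with a directional MGI kit per the labels' protocols. FastQC 0.10.1, STAR 2.7.3a, RSEM 1.3.1, DESeq2 and build hg38 were used, per the submitters' processing notes. The deposited signal per gene is a read count that the authors normalized with DESeq2, as the table is named; the annotation, the strand setting and any filter were not given in the sources used here. Library totals no longer show depth. Whole reads were looked for and not recovered: at best 36.2% to 37.4% of values under 10 were multiples of 1 step within 0.1 of a step. Evenly spread values would give 20.0% at a fixed step, and the step here was the best of many. No count test was run.

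limma 3.58.1 in R 4.3.3 was fitted to log2(value + 1), with group as its only term and a variance trend, to genes with a mean of at least 10. Two-sided p-values had Benjamini-Hochberg adjustment across 12789 genes, with a threshold of 0.05. The pseudocount understates fold changes at low values. The fit was tested on simulated whole counts in which few genes were changed, unlike the values here. Nothing is read from that run about these data. Replicate numbers did not pair the libraries. Positions and exon lengths came from GENCODE 29 on GRCh38, which hg38 names. The 8 genes, the gene lists and the letter strings searched were chosen with earlier results of these data known. Named are LTBP1, the 8 genes, the 3 largest rises and falls past the threshold in each list, the receptors KDR, FLT1, FLT4, NRP1, NRP2, PDGFRA, PDGFRB and PLAUR, HIF1A, EPAS1 and the nearest profiles. One gene that this rule names is not reported here. SYTL4, ELAVL1, LPL and the marker genes were picked with their values in view.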

Additional observations from a re-analysis of the deposited data

How the results depend on the processing

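The alternatives changed the pseudocount to 0.5 or 5, the minimum mean to none or 50, or used upper quartile scaling, quantile normalization, no variance trend, robust moderation, the replicate number as a block, the neighbours' median subtracted, and each library left out. Log2 fold changes of VEGFA, PDGFB and SRPX2 under the 16 alternatives were -0.998 to -0.93, -0.87 to -0.84 and -3.40 to -3.01. PDGFB was at -0.84 with upper quartile scaling, and SRPX2 at -3.01 and VEGFB at -0.17 with the neighbours' median subtracted. VEGFB changed sign under 3 alternatives. PDGFA ran from -0.35 to -0.18, the value nearest 0 without shLTBP1 replicate 1, and PGF from -0.42 to -0.10, the value nearest 0 without shLTBP1 replicate 2. PDGFA had not passed the threshold, but did so under 2 of the 16 alternatives, quantile normalization and without shLTBP1 replicate 2. Over all genes 5822 to 6534 passed with 1 library left out. The replicate numbers showed no pairing: deviations of same-numbered libraries correlated at -0.009, 0.058 and -0.001 across genes, and only replicate 2 correlated best with its own number. With the replicate block 6755 genes passed, against 6788. Of the angiogenic ligands 3 fell with a mean of at least 50, where low genes are left out. Of the cleavage and release genes 4 fell with no filter, which tests more genes. Of the oxygen sensing genes 1 fell with quantile normalization and 1 without the variance trend, and 1 to 3 with a library left out; the low value came without shSCR replicate 2 or 3. Of the VEGFA mRNA regulators 3 rose without the variance trend. The cause was not tested. With neighbours' medians subtracted, PGK1 turned to 0.17 and ZFP36L2 to 0.165, both in regions of lower genes. Of 102 tested list genes, 79 kept their call under every alternative run for them; a minimum mean of 50 left 94 of the 102. Counting error weighs most on genes near a mean of 10, such as PGF, and read depth is unknown.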

Other observations

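Genes used as markers of other cells of a tumour were also measured in these libraries, which come from a cell line. ESAM, an adhesion molecule of endothelial cells, averaged 505 ± 20.7 normalized counts in shLTBP1 and 347 ± 9.85 in shSCR cells (SD, n = 3 each; log2 fold change 0.54, limma adjusted p = 0.000261), while PECAM1 and CDH5 reached at most 8.84 and 3.003 in any library. The collagen chain COL1A1 averaged 805 ± 120.5 in shLTBP1 and 1213 ± 123 in shSCR cells (log2 fold change -0.60, limma adjusted p = 0.0017), and COL1A2 reached at most 3.03. Lumican (LUM), a matrix proteoglycan, had 41.5, 52.0 and 36.6 normalized counts in the shLTBP1 libraries and was listed at 0 in the 3 shSCR libraries. Of the other fibroblast and pericyte markers, RGS5 averaged 29.2 in shLTBP1 and 17.0 in shSCR cells (limma adjusted p = 0.0667). DCN, PDGFRB and CSPG4 were under the minimum mean of 10, and THY1 was at 0 in all 6 libraries. HBA1 had 803 and HBB 132 normalized counts in shSCR replicate 3, while in the other 5 libraries HBA1 lay between 3.36 and 11.99 and HBB was at 0. PDGFD, a further PDGF ligand that was below the minimum mean, had 21.8, 10.5 and 20.2 normalized counts in shLTBP1 libraries and 0, 0.815 and 0 in shSCR libraries. These genes were picked after their values were seen.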
